A study of Homo sapiens with 4 samples.

Results

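The 8 genes described here encode the proteins that sense sterols at the endoplasmic reticulum and set lipid synthesis and uptake: *INSIG1*, *INSIG2*, *SCAP*, *SREBF1*, *SREBF2*, *MBTPS1*, *MBTPS2* and *MYLIP*. They were chosen by name, each was found by its symbol in the expression tables, and they are 8 of the 55822 genes found in both annotation releases used. HK2 cells are a human line derived from the proximal tubule of the kidney. FG-4592, also called roxadustat, blocks the prolyl hydroxylases and so keeps HIFα subunits from being degraded. The 4 samples were 2 RNA-seq libraries and 2 HIF1α ChIP-seq peak lists, all of HK2 cells treated with 50 μM FG-4592, for 6 h by the RNA-seq methods. Untreated cells were not analysed here, so all values are levels in treated cells and no change was measured. Nothing in the labels says that the replicates came from separate cultures, and the spread between them may be technical.

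In cells with enough sterol, INSIG1 and INSIG2 hold SCAP, and the membrane-bound SREBP precursors bound to it, in the endoplasmic reticulum. When sterol falls, SCAP carries the precursors to the Golgi apparatus, where the site-1 protease (*MBTPS1*) and then the site-2 protease (*MBTPS2*) cut them and free a transcription factor. SREBP-2, from *SREBF2*, mainly drives cholesterol synthesis, while the SREBP-1a and SREBP-1c products of *SREBF1* also drive fatty acid synthesis. *MYLIP* encodes IDOL, a ubiquitin ligase that sends lipoprotein receptors to lysosomes and is induced by the sterol-sensing nuclear receptors LXRα and LXRβ.

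The RNA-seq tables hold no counts, and the depth was taken as bases of coverage, 4442 Mb for replicate 1 and 4202 Mb for replicate 2. FPKM, in which fragments are scaled by transcript length and library size, was summed over the transcripts of each gene, and 13319 and 13353 genes reached an FPKM of 1. The labelled cell type was compared with marker genes. Of 5 epithelial markers, 4 reached an FPKM of 1 in both libraries, with summed FPKM of 437.1 and 432.6. *KRT19* was the most abundant, at 180.4, and *CDH1* the lowest, at 0.295. Of 11 proximal tubule markers, 3 reached an FPKM of 1, with summed FPKM of 185.9 and 174.5. *PAX8* was the highest, with 120.8 and 114.1 of these sums and a mean of 117.5, while the median of the 11 means was 0.0447. *LRP2*, the endocytic receptor megalin, was listed at 0 in both libraries, as were *SLC22A6* and *HNF4A*. Of the markers of other cells, 8 of 9 were matched and 1 reached an FPKM of 1, *COL1A1*, with 38.7 in each library, and 5 were listed at 0.

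All 8 genes reached an FPKM of 1 in both libraries, as did 58.9% of 19645 protein-coding genes. *MBTPS1* had the highest level, an FPKM of 46.3 in replicate 1 against 55.5 in replicate 2. *MYLIP* had the lowest, 1.65 and 1.97. The mean of *MBTPS1* was 28.1 times that of *MYLIP*. The ratio depended on the transcripts used, since by the largest transcript of each gene the means were 44.2 and 0.965 FPKM. By bases of coverage over each gene's exon length, *SREBF2* ranked highest and *MBTPS1* in place 3. *INSIG2*, in place 4, then stood above *SREBF1*, in place 5, so the top and the middle of the order depended on the measure. By summed FPKM the order between *MBTPS1* and *MYLIP* was *SREBF2*, *INSIG1* and *SREBF1*, a group of similar levels, then *INSIG2*, *SCAP* and *MBTPS2*. Neighbours in this order were called apart when the gene was higher in both libraries and the means differed by more than either SD. By this rule and summed FPKM, 5 of 7 neighbouring pairs were apart. *SREBF2* and *INSIG1* were not, with means 2.42 FPKM apart against an SD of 2.50, and neither were *INSIG1* and *SREBF1*, with means 1.52 FPKM apart. The order of these 3 genes differed between the libraries. Pairs called apart also turned with the measure. By the largest transcript *SREBF1* had a mean of 11.7 FPKM, below *INSIG2* at 17.1. *SCAP* stood below *MBTPS2* by the largest transcript and by protein-coding transcripts. The group of similar levels also depended on the measure. By protein-coding transcripts *SREBF1* had 19.7, against 32.7 for *INSIG1* and 33.1 for *SREBF2*. With 2 libraries of 1 condition no test was run, and the smallest two-sided p of an exact permutation test of 2 values against 2 would be 0.333.

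The median of the 8 means was 26.0 FPKM, beside 11.0 over the 11567 protein-coding genes expressed at an FPKM of at least 1 in both libraries, and 6 of the 8 lay above the latter. The libraries differed little at these genes, though by the median slightly more than over the expressed genes. On the log2(FPKM + 1) scale the median absolute difference between replicates was 0.15, beside 0.12 over the expressed genes. The largest difference was 0.26, at *MBTPS1*, which was higher in replicate 2. In all, 5 genes were higher in replicate 2 and 3 in replicate 1.

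**Figure D1:**
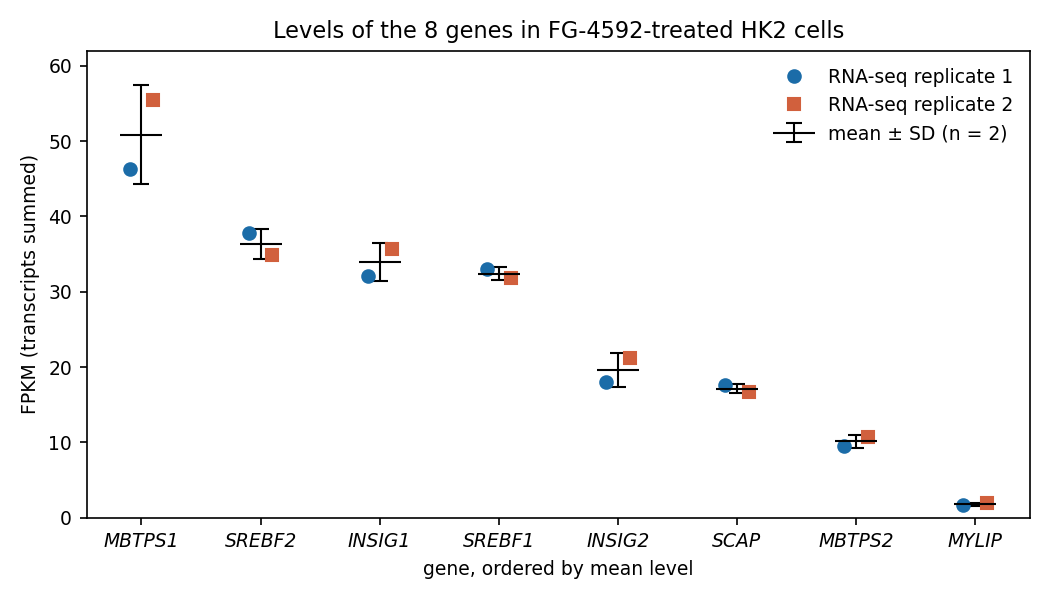
FPKM (vertical axis, transcripts of a gene summed) of the 8 genes in RNA-seq replicate 1 (circles) and replicate 2 (squares), with the mean and SD (horizontal mark and bar, n = 2). *MBTPS1* is at 46.3 and 55.5, *SREBF2*, *INSIG1* and *SREBF1* lie within 31.8 to 37.8, and *MYLIP* is at 1.65 and 1.97.

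*INSIG1* (ENSG00000186480) had an FPKM of 32.2 and 35.7, and *INSIG2* (ENSG00000125629) of 18.0 and 21.2. The ratio of *INSIG1* to *INSIG2* was 1.79 in replicate 1 and 1.69 in replicate 2. Among the expressed protein-coding genes, 84.0% had a lower mean than *INSIG1* and 70.2% a lower mean than *INSIG2*. The 2 genes together stood at 2.85 and 3.40 times the FPKM of *SCAP*, whose protein both of their proteins bind. This ratio, 3.12 by the means, was 4.94 by the largest transcript of each gene and 11.4 by protein-coding transcripts, both added after the data were seen. The transcripts behind these sums differed. *INSIG1* was spread over several protein-coding transcripts, INSIG1-201 with an FPKM of 20.1 and 22.3, INSIG1-206 with 4.96 and 6.12 and INSIG1-204 with 4.84 and 4.33. *INSIG2* came mostly from 1 transcript, INSIG2-201, with 15.8 and 18.4, which was 87.5% of the gene's mean. The ratio of the genes therefore depended on how transcripts were taken: by the largest transcript of each it was 1.24, and by protein-coding transcripts 1.91.

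HIF1α ChIP-seq replicate 1 held 1689 peaks and replicate 2 held 16953. The lists give positions on GRCh37 (hg19) with no height or score, so the strength of a peak and the depth behind it are unknown. The lists also differed in kind: 32.9% of the bases in replicate 1 peaks lay in annotated exons, against 84.5% in replicate 2. A promoter peak was a peak that overlapped 1 kb on either side of any annotated start site. In replicate 1, 3 of the 8 genes had one, *INSIG1*, *INSIG2* and *SREBF1*, beside 8.68% of expressed protein-coding genes. In replicate 2, 1 of the 8 had one, *SCAP*, beside 20.2%, and no gene had one in both replicates, beside 2.91%. With 8 genes these counts describe the genes and carry no test.

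*INSIG1* spans 155089486 to 155101945 of chromosome 7 on the forward strand and had 2 peaks in replicate 1. The first, 261 bp wide, is centred 862 bp before the canonical start site at 155089588. It lies wholly in an exon of *INSIG1-DT*, a long noncoding RNA transcribed in the other direction, whose start site is 242 bp from the centre of the nearer of the 2 peaks. *INSIG1-DT* itself was low, with an FPKM of 0.996 and 0.543. The other peak, 234 bp wide, is centred 95 bp before the canonical start site and runs into the first exon, where 125 of its bases are annotated as 5′ UTR. Replicate 2 had no peak at this gene, the nearest being centred 329177 bp before the start site. HIF1 binds the core of the hypoxia response element, ACGTG or GCGTG, which was sought on both strands. The upstream peak holds 3 such cores and the peak at the start site 6, the nearest to each centre at 4 and 5 bp. The cores of the latter include an E-box, CACGTG, which is read as ACGTG on each strand. The sequences are shown because they carry the cores, in capitals, for the whole upstream peak and, for the other, for the part before the first annotated start, which holds 3 of the 6 cores and neither the E-box nor the core nearest the centre (GRCh37, forward strand, chr7:155088596-155088856 and chr7:155089377-155089485).
INSIG1 upstream peak: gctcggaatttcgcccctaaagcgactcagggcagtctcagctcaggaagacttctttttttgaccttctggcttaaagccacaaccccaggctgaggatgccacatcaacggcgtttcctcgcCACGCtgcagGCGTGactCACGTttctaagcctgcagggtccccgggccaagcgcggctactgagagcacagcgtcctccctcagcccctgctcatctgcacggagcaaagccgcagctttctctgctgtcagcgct
INSIG1 start-site peak: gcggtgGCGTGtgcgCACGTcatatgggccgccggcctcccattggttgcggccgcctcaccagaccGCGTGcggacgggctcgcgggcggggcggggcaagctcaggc

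*INSIG2* spans 118846028 to 118868573 of chromosome 2 on the forward strand. Its replicate 1 peak, 451 bp wide, lies in intergenic sequence just before the gene, centred 288 bp before the canonical start site at 118846047. It overlaps no annotated exon. The whole peak holds 4 cores, 2 of them within 100 bp of the centre and the nearest at 11 bp. Replicate 2 had a single peak in the gene, from 118866114 to 118866579, 466 bp that lie wholly in the 3′ UTR of exon 6, the last, 20299 bp after the canonical start site. It holds no core. The centre of the replicate 1 peak is shown with 100 bp on either side (GRCh37, forward strand, chr2:118845659-118845859, cores in capitals).
INSIG2 peak: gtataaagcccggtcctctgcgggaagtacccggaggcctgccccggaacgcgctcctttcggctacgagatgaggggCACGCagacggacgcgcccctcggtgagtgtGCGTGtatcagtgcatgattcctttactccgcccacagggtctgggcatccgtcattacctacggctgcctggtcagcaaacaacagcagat

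*SREBF1* (ENSG00000072310) had an FPKM of 33.0 and 31.8 and *SREBF2* (ENSG00000198911) of 37.8 and 34.9. *SREBF2* was higher in both libraries, by a ratio of 1.14 and 1.10. The gap was wider by protein-coding transcripts, with means of 33.1 for *SREBF2* and 19.7 for *SREBF1*. By the largest transcript the means were 33.0 and 11.7. The 2 genes differed in how many transcripts shared the level. *SREBF2* came almost wholly from SREBF2-201, with 33.5 and 32.4, while the most abundant of 23 *SREBF1* transcripts, SREBF1-201, had 11.4 and 12.0, or 36.1% of the gene's mean. Of the *SREBF1* mean, 60.9% was in transcripts annotated as protein coding, 20.8% in transcripts with a retained intron and 17.0% in targets of nonsense-mediated decay. Of the 23 transcripts, 6 had a larger SD than the gene's sum, whose SD was 0.875. The largest was that of SREBF1-212, with an FPKM of 0.872 and 4.07.

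The first exon of *SREBF1* decides which SREBP-1 protein is made. The upstream first exon opens SREBP-1a, a strong activator that predominates in many cultured cell lines, and the downstream one opens SREBP-1c, the main form in liver. On GRCh37 they lie at 17740041 to 17740316 and 17726832 to 17726932 of chromosome 17 (reverse strand), with their starts 13384 bp apart. Coverage, the mean read depth per base that the authors give for each exon, was summed over the transcripts with each exon. The SREBP-1a exon had a coverage of 177.2 in replicate 1 and 120.3 in replicate 2. The SREBP-1c exon had 7.41 and 7.67. The upstream exon was thus 23.9 and 15.7 times the downstream one. SREBF1-202 holds both exons, and without it, a setting added after the data were seen, the ratios were 167.4 and 42.0, since only 0.890 and 2.60 of coverage then remained on the SREBP-1c exon.

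*SREBF1* is transcribed from the reverse strand of chromosome 17 between 17740316 and 17713713. Its replicate 1 peak, from 17739667 to 17739900, is centred 517 bp after the canonical SREBP-1a start site at 17740300, in the first intron. It overlaps no annotated exon. It holds 2 cores, which are the strands of 1 E-box, CACGTG, that lies 1 bp from the centre of the peak. No peak of replicate 1 lies within 10 kb of the SREBP-1c start. In replicate 2 a peak from 17713334 to 17714464 covers the 3′ end, where *SREBF1* and the convergent gene *RAI1* overlap. All of its bases are exonic, 253 of them in *SREBF1*, and *RAI1* had an FPKM of 16.4 and 13.3. Whether the libraries keep the strand of the RNA is not given in the sources used here, so reads from the overlap cannot be told apart. The microRNA gene *MIR33B* lies within *SREBF1* on the same strand. It had an FPKM of 0.0547 and 0.384, which may include reads of *SREBF1* RNA. The peak of replicate 1 is shown on the strand of the gene (GRCh37, reverse strand, chr17:17739667-17739900, E-box in capitals).
SREBF1 peak: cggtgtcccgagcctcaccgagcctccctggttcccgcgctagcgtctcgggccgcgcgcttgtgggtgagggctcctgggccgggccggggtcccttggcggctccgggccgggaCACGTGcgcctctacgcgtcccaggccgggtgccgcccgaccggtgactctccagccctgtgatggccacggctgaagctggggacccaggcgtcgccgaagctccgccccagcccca

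Cores of this kind are common in replicate 1 peaks. Of 1661 windows of 201 bp at the centres of replicate 1 peaks, 86.1% held ACGTG or GCGTG and 15.8% held CACGTG. Of 16648 such windows in replicate 2, 26.6% held ACGTG or GCGTG and 3.18% held CACGTG. The peak at the *INSIG1* start site held 4 cores in this window, and 15.2% of the replicate 1 windows held 4 or more.

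**Figure D2:**
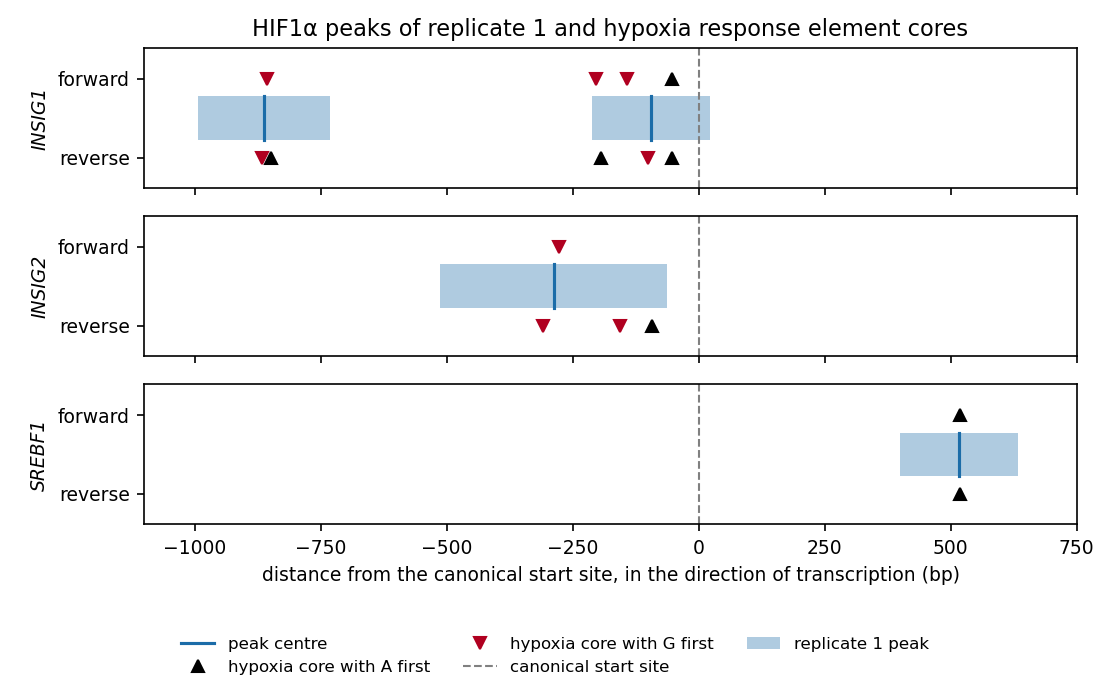
HIF1α peaks of ChIP-seq replicate 1 (bars, with the centre as a line) at *INSIG1*, *INSIG2* and *SREBF1*, against the distance from the canonical start site in bp, in the direction of transcription. Triangles mark the hypoxia response element cores on the forward or reverse strand of the gene. The peaks of *INSIG1* and *INSIG2* are centred before the start site, at -862, -95 and -288 bp, and that of *SREBF1* is centred 517 bp after it.

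*SREBF2* had no replicate 1 peak within 10 kb, the nearest being centred 881971 bp before its start site at 42229109 of chromosome 22. Replicate 2 had 3 peaks in the gene, from 42262874 to 42263149 in exon 2, from 42276617 to 42276941 in exon 10 and from 42301487 to 42303123 in the 3′ UTR of exon 19, the last. They covered 2135 of 8053 exon bases, or 26.5%, the largest share of the 8 genes. The antisense RNA *SREBF2-AS1*, which overlaps the start of the gene, had an FPKM of 1.71 and 1.97, subject to the same doubt about strand, and *MIR33A*, within an intron, was listed at 0. The RefSeq promoter of *SREBF2* (300 bases on GRCh38.p14) holds a sterol regulatory element, TCACNCCAC on either strand, which 1.13% of 35116 RefSeq promoters of this length hold, and an NF-Y box, CCAAT, which 34.6% hold. It was the only 1 of the 8 genes with TCACNCCAC in its RefSeq promoter. The stretch with both is shown because *SREBF2* is known as a target of its own product (forward strand, chr22:41832952-41833023, motifs in capitals, the NF-Y box on the reverse strand).
SREBF2 promoter: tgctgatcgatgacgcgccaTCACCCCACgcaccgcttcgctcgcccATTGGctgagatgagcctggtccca

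*SCAP* (ENSG00000114650), the escort of the SREBP precursors, had an FPKM of 17.6 and 16.7, a narrow spread (17.1 ± 0.631, SD, n = 2). Most of it was in transcripts not annotated as protein coding. SCAP-202, an annotated target of nonsense-mediated decay with 18 exons, had an FPKM of 7.54 and 7.97. SCAP-201, the canonical protein-coding transcript with 23 exons, had 4.42 and 4.04, lower in both libraries and by more than either SD. SCAP-203, also annotated for nonsense-mediated decay, had 3.07 and 1.81. Protein-coding transcripts made up 25.4% of the mean of *SCAP*, and nonsense-mediated decay transcripts 64.5%. Over the expressed protein-coding genes the median protein-coding share was 88.5%, and 4.16% of them had a smaller share than *SCAP*. These transcripts share most exons, the levels are StringTie's division of shared coverage, and the types come from a later annotation release than the tables. By protein-coding transcripts only, *SCAP* had an FPKM of 4.36 and stood below *MBTPS2*.

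**Figure D3:**
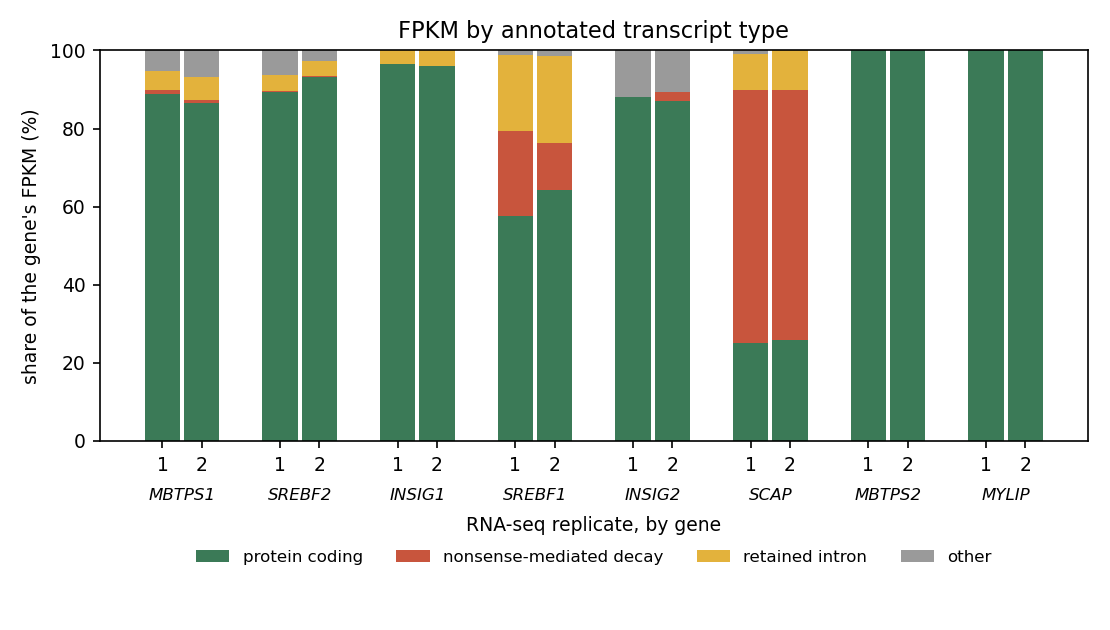
Share of each gene's FPKM (vertical axis, %) by annotated transcript type, for RNA-seq replicates 1 and 2, with the genes ordered by mean level. Protein-coding transcripts make up 25.4% of the *SCAP* mean and 60.9% of the *SREBF1* mean, and at least 87.5% of the mean of each of the other 6 genes.

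*SCAP* had the only replicate 2 promoter peak of the 8 genes. It lies on chromosome 3 from 47484366 to 47484630, wholly in exon 2 of the canonical transcript and 32933 bp after the canonical start site at 47517431. It counted as a promoter peak through 2 start sites of 3 short transcripts: SCAP-205, with an FPKM of 0.173 and 0, and SCAP-210 start 86 bp from its centre, and SCAP-213, annotated as protein coding, starts 294 bp from it. Replicate 2 had 2 further peaks in the gene, in exons 13 and 17, and the 3 peaks covered 13.7% of the exon bases. With only the start site of each gene's longest extent, or only replicate 2 peaks with under 50% of their bases in exons, the latter added after the data were seen, the count of genes with a replicate 2 promoter peak was 0, beside 7.58% and 1.44% of expressed genes. The nearest replicate 1 peak was centred 306026 bp before the start site. In all, 5 of the 8 genes had a core in a RefSeq promoter, beside 48.4% of all RefSeq promoters. *INSIG1* had the most, 6, then *SCAP* with 5 and *MBTPS1* with 4. An E-box was held by *INSIG1* and *SCAP*, beside 7.26% of promoters. Both shares are over single promoters of all genes, while a gene with more than 1 promoter was counted once.

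The proteases differed by about 5.00 times in mean level. *MBTPS1* (ENSG00000140943), the site-1 protease, had a mean FPKM of 50.9 ± 6.53 (SD, n = 2), and 90.3% of the expressed protein-coding genes were lower. *MBTPS2* (ENSG00000012174), the site-2 protease, had 10.2 ± 0.866, with 9.56 in replicate 1 and 10.8 in replicate 2, and 47.3% of the genes were lower. The ratio of the proteases was 4.84 and 5.15. A single transcript carried most of each level, MBTPS1-201 with 40.6 and 47.9 and MBTPS2-202 with 9.19 and 10.6. Neither gene had a replicate 1 peak within 10 kb, the nearest being centred 131131 bp before the start site of *MBTPS1* and 100952 bp after that of *MBTPS2*. Replicate 2 had 1 peak in each, in the last exon: from 84087519 to 84088357 of chromosome 16 at *MBTPS1* and from 21901344 to 21901601 of chromosome X at *MBTPS2*, the latter wholly in the 3′ UTR. The 3 replicate 2 peaks centred 6047 to 7540 bp before the *MBTPS1* start site lie in exons of the neighbouring gene *HSDL1*. *MBTPS1-DT*, a noncoding RNA transcribed away from the *MBTPS1* start site, had an FPKM of 1.31 and 0.343. *YY2*, a gene within *MBTPS2*, had an FPKM of 1.13 and 0.851.

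*MYLIP* (ENSG00000007944), on chromosome 6 from 16129317 to 16148479, was near the bottom of the expressed range. Its FPKM was 1.65 and 1.97 (1.81 ± 0.223, SD, n = 2), and 5.00% of expressed protein-coding genes were lower. Its coverage summed to 20.7 and 23.3 kb, beside 233.9 and 248.6 kb for *MBTPS2*, the next lowest gene, so its level rests on the least coverage of the 8. The level was split between MYLIP-201, with 0.873 and 1.06, and MYLIP-202, with 0.782 and 0.912. Either transcript on its own fell below an FPKM of 1 in replicate 1. *MYLIP* had no peak in either replicate within 10 kb, the nearest being centred 630989 bp after its start site in replicate 1 and 170720 bp in replicate 2. Its RefSeq promoter holds no core and 2 NF-Y boxes.

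Most peaks of replicate 2 in these genes lay over exons. Of 10 that overlapped a member gene, all 10 touched an exon of the gene, and 9 were centred in one. Of all replicate 2 peaks in expressed protein-coding genes, 96.7% touched an exon of any gene. The share of a peak's bases in exons of the gene had a median of 100% and was smallest, 22.4%, at the 3′ end of *SREBF1*. A hypoxia response element core was found in 5 of the 10, beside 48.8% of 16648 replicate 2 peaks, and in the central 201 bp of 3, beside 26.6%. The peak at the 3′ end of *SREBF1*, 1131 bp wide, held the most, 6, with an E-box, but its nearest core was 175 bp from the centre. In all, 6 of the 8 genes had a replicate 2 peak over an exon, beside 50.7% of expressed protein-coding genes. That share moved with level: it was 24.3% among the 2814 genes with a mean FPKM from 1 to 5, where *MYLIP* stood, and 68.7% among the 1839 from 20 to 40, where *INSIG1*, *SREBF1* and *SREBF2* stood. *INSIG1* and *MYLIP* were the 2 genes without such a peak. The part that expression level plays in the replicate 2 peaks of these genes was not tested. For replicate 1 promoter peaks the shares in the same ranges were 5.61% and 11.6%.

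**Figure D4:**
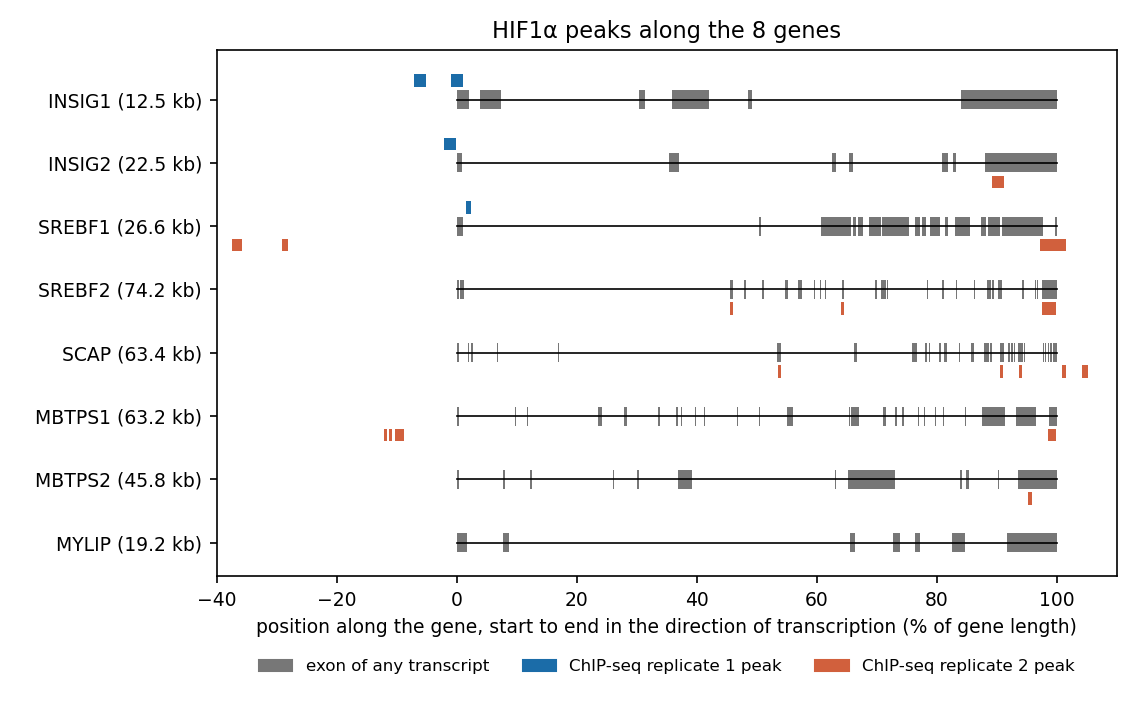
Exons of any annotated transcript (grey) and HIF1α peaks of ChIP-seq replicate 1 (above each gene) and replicate 2 (below), along each of the 8 genes as a percentage of its length in the direction of transcription, with peaks up to 10 kb outside the gene. Replicate 1 peaks sit at the start of *INSIG1*, *INSIG2* and *SREBF1*, and replicate 2 peaks touch exons or, outside the genes, lie in exons of neighbouring genes.

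A list of 18 genes covered proteins that act on INSIG, SCAP or the SREBPs and carriers of cholesterol. The RNA of each reached an FPKM of 1 in both libraries, with a median of 19.8, from *FBXW7*, which marks nuclear SREBP for degradation, at 9.18 to *NPC2*, a lysosomal cholesterol carrier, at 188.7. In replicate 1, 2 of the 18 had a promoter peak, beside the 8.68% of expressed genes: *ERLIN1*, a membrane scaffold of the endoplasmic reticulum, with a peak centred 35 bp from a start site and an FPKM of 24.9 and 23.2, and *RNF145*, a ubiquitin ligase of the same membrane, with a peak centred 79 bp away and 18.7 and 20.9. Neither had one in replicate 2. The list had 4 genes with a replicate 2 promoter peak, beside 20.2% of expressed genes, and 8 with a window of 3 kb, beside 32.4%. None had a promoter peak in both.

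The listed targets of the SREBPs were expressed as well. All 21 SREBP-2 targets listed here reached an FPKM of 1, with a median of 24.4, from *TM7SF2* at 3.05 to *FDPS*, the farnesyl diphosphate synthase, at 59.6. None had a promoter peak in replicate 1 and 3 had one in replicate 2, beside 8.68% and 20.2% of expressed genes. All 13 SREBP-1 targets reached an FPKM of 1, with a median of 16.2, from *ELOVL6* at 1.85 to *SCD*, the stearoyl-CoA desaturase, at 240.4. *SCD* was the only 1 of them with a replicate 1 promoter peak, centred 753 bp from a start site, and also had one in replicate 2. In that replicate 4 of the 13 had one, beside 20.2%, and 6 with a window of 3 kb. With a window of 3 kb, 1 of the SREBP-2 targets had a replicate 1 peak, *MVD*, whose nearest centre was at 1929 bp, and 7 had a replicate 2 peak, beside 9.54% and 32.4% of expressed genes.

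Of 11 genes of lipoprotein receptors and their control, 10 reached an FPKM of 1 in both libraries. In this list 3 genes had a promoter peak in replicate 1 and 4 in replicate 2, beside 8.68% and 20.2% of expressed genes, and 3 in both, beside 2.91%: *VLDLR*, the VLDL receptor, with an FPKM of 28.0 and 25.1 and a replicate 1 peak centred 33 bp from a start site, and *UBE2D2* and *UBE2D3*, ubiquitin-conjugating enzymes that work with IDOL. *UBE2D3* was the highest of the list at 55.3, and *USP2*, a deubiquitinase, the lowest at 0.803. Of 8 genes of the LXR pathway, 7 reached an FPKM of 1. *NR1H2*, which encodes LXRβ, had 27.2 and 24.1 and *NR1H3*, which encodes LXRα, 3.24 and 4.29. The list ran from *ABCG1*, listed at 0 in both libraries, to *ABCA1*, the cholesterol exporter, at 32.4, and none had a replicate 1 promoter peak. In replicate 2, 1 had one, and 2 with a window of 3 kb. The shares of expressed genes are those given above, and 8 genes are too few to set the list apart from them.

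For comparison, 7 of 10 known HIF targets had a promoter peak in replicate 1 (*BNIP3*, *VEGFA*, *HILPDA*, *EGLN1*, *CA9*, *PDK1* and *ANKRD37*), 7 in replicate 2 and 6 in both, beside 8.68%, 20.2% and 2.91% of expressed genes. Their median FPKM was 30.5, from *EGLN3* at 5.38 to *BNIP3* at 288.7. *INSIG1*, *INSIG2* and *SREBF1* thus had a replicate 1 promoter peak as these 7 targets did, but no promoter peak in replicate 2, where 6 of the 7 had one. Among all 1004 expressed protein-coding genes with a replicate 1 promoter peak, 337 (33.6%) had one in replicate 2. With a window of 3 kb, *INSIG2* and *SREBF1* had one in replicate 2, as did 9 of the 10 HIF targets and 32.4% of expressed genes. The peaks of *INSIG2* and *SREBF1* are centred 20299 and 26401 bp after the canonical start sites and count through start sites within the genes.

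**Figure D5:**
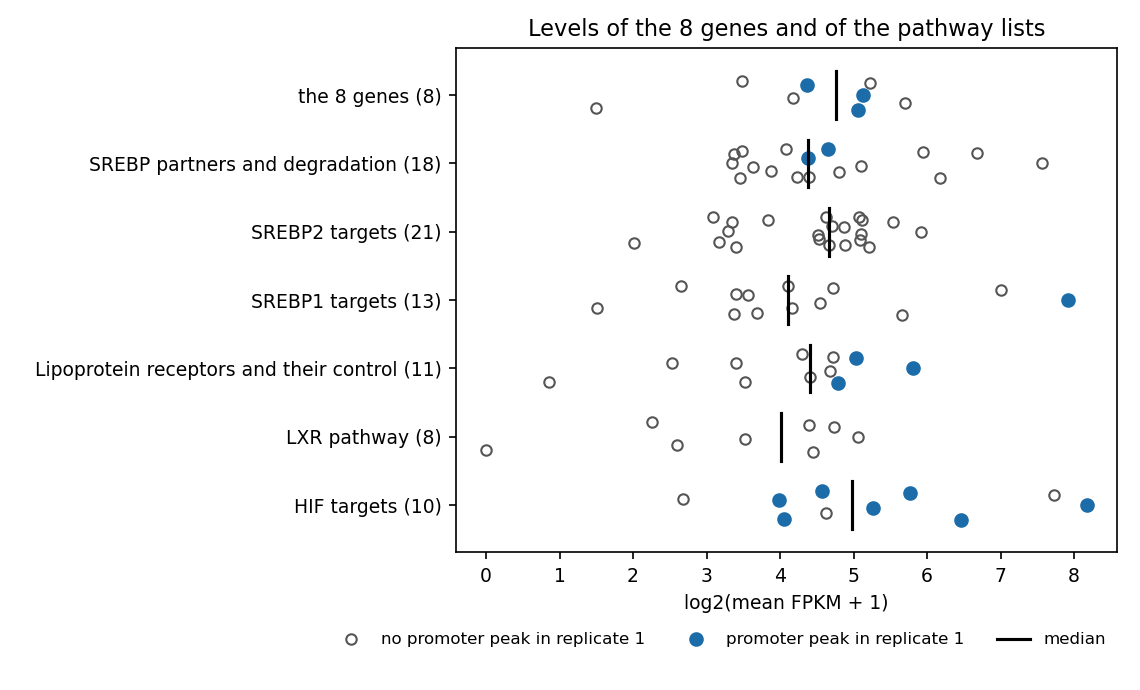
Mean level of each gene as log2(mean FPKM + 1) (horizontal axis) for the 8 genes and 6 pathway lists, with the number of genes in parentheses and the median as a line. Filled points had a promoter peak in ChIP-seq replicate 1: 3 of the 8 genes, 2 of 18 SREBP partners, 0 of 21 SREBP-2 targets, 1 of 13 SREBP-1 targets, 3 of 11 lipoprotein receptors and their control, 0 of 8 in the LXR pathway and 7 of 10 HIF targets.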

How the data were processed

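HK2 cells treated with FG-4592 gave 2 RNA-seq and 2 HIF1α ChIP-seq samples, grouped by their labels. For the RNA-seq, the authors aligned reads with HISAT2 and ran StringTie 1.3.3 on GENCODE 27, and deposited FPKM, TPM and mean coverage for each transcript, with no counts. Their coordinates follow GRCh38, not hg19: only 4.42% of the shared genes began within 1000 bp of the GRCh37 position. For the ChIP-seq, the authors aligned reads to hg19 with Bowtie2 and called peaks with MACS2 per replicate, and deposited positions only; version, threshold and control are not given in the sources used here.

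FPKM was summed per gene over its transcripts and joined to peaks by Ensembl identifier, never by position. Start sites, exons and transcript types came from GENCODE 44 mapped to GRCh37, and mitochondrial genes were left out. The minimum FPKM was 1 and the pseudocount 1. Promoter sequences came from RefSeq (GRCh38.p14), where all 8 genes were matched. The code for peak assignment was checked on simulated peaks on and just past the edge of the window. Python 3.11.15, pandas 2.3.3, numpy 2.4.6 and pysam 0.24.0 were used.

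The genes and lists were chosen with earlier results of these data known. Genes named were the 8 members, the highest and lowest of each list, those with a replicate 1 promoter peak, and those that overlap a member or start within 10 kb of a peak at one, except some under an FPKM of 1 or without a value, left unnamed after these were seen. *NR1H2*, *NR1H3*, *MVD*, *HSDL1*, *LRP2*, *SLC22A6* and *HNF4A* were named beside these, after their values were seen. After that, 3 genes were taken out of the pathway lists for a reason unrelated to their values, and are not reported here; the lists were computed again without them. Alternatives covered the promoter window, start sites, FPKM minimum and unit, transcripts used, motif window and leaving out each replicate.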

Additional observations from a re-analysis of the deposited data

How the results depend on the processing

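No paired analysis was possible because all samples are of 1 condition and no result comes from a test. The count of 8 genes at the FPKM minimum became 7 with a minimum of 5 and stayed at 8 by TPM; a lower minimum or none could not change it. The 3 genes with a replicate 1 promoter peak were 3 under each window, start site and overlap rule tried. The replicate 2 count of 1 became 3 with a window of 3 kb and 5 with 10 kb, beside 32.4% and 50.5% of expressed genes, and 0 with only the start site of the longest extent or, chosen after seeing the data, with replicate 2 peaks under 50% exonic, beside 7.58% and 1.44%. The count of 0 genes with a promoter peak in both replicates became 2 with 3 kb and with 10 kb (*INSIG2* and *SREBF1*), beside 4.27% and 7.64%, through exonic replicate 2 peaks away from the replicate 1 peaks, and without one or the other ChIP-seq replicate it is by construction the count of 1 or 3 of the remaining one. The *INSIG1* to *INSIG2* ratio of 1.73 became 1.24 by the largest transcript and 1.91 by protein-coding transcripts, and ran from 1.69 to 1.79 without either RNA-seq replicate. The median absolute log2 difference of 0.15 became 0.16 with a pseudocount of 0.1 and 0.17 by TPM. By bases of coverage over each gene's exon length, *SREBF2* ranked highest and *MBTPS1* in place 3. *INSIG2*, in place 4, then stood above *SREBF1*, in place 5, the reverse of a pair called apart by summed FPKM. The largest transcript also reversed this pair, with means of 17.1 and 11.7 FPKM. TPM and protein-coding transcripts kept *SREBF1* above *INSIG2*. *SCAP* and *MBTPS2*, also called apart, were reversed by the largest transcript and by protein-coding transcripts, but not by TPM or coverage. Precision is limited by 2 libraries per assay, by the low coverage of *MYLIP*, and by the unknown depth behind the peak lists.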
